A study of Mus musculus with 54 samples.

Results

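The nuclear genes for the subunits of the oxidative phosphorylation complexes were followed across promoter accessibility, transcription factor binding and promoter contacts in mouse B-lineage progenitors. A gene was a member when its symbol had the form Nduf, Sdh, Uqcr, Cox4 to Cox8 or Atp5 and it was the gene nearest to at least 1 peak in the list of accessible regions or in the list of Fli1 peaks. The rule gave 76 of the 17750 genes named in the 2 lists: 33 of complex I, 4 of complex II, 8 of complex III, 15 of complex IV and 16 of complex V. The accessible list named 68 of them, the Fli1 list 65 and both lists 57, so 8 members were chosen through a Fli1 peak alone and 11 through accessibility alone. The counts by complex follow the symbols, which misplace some genes and take in some that are not subunits in a strict sense. Among them, Ndufa4 is a subunit now placed with complex IV, Cox7a2l joins complexes III and IV, and Atp5sl acts in the assembly of complex I.

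Oxidative phosphorylation turns the energy of nutrients into ATP at the inner mitochondrial membrane. Complex I oxidises NADH and complex II oxidises succinate, complex III passes the electrons to cytochrome c, complex IV hands them to oxygen, and complex V, the ATP synthase, uses the resulting proton gradient. Most subunits are encoded in the nucleus, from promoters in CpG-rich sequence where factors of the ETS family (such as GABP), NRF1 and YY1 are known to bind. Dividing progenitors depend on these complexes for ATP and for the supply of biosynthetic precursors. Fli1 is an ETS factor of blood cells, and Ikzf1 (Ikaros) is a zinc finger factor required for lymphoid development.

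Accessibility came from 2 ATAC-seq samples of a mouse progenitor B cell line transformed by Abelson virus, called the Abelson line here. Promoter contacts came from 2 H3K4me3 PLAC-seq samples of the same line, which is 1 transformed line and not primary tissue. Fli1 and Ikzf1 peaks came from 1 ChIP-seq sample each of wild-type (Wt) C57BL6/J pro-B cells, which had been expanded from fetal liver on a layer of OP9 stroma with added cytokines (interleukin-7 and the ligands of KIT and FLT3). Histone marks, RNA polymerase II (PolII), BRG1 and EP300 were compared between such Wt cells and Ebf1-KO cells, and ATAC-seq between Wt and E2A-KO cells. All Wt, Ebf1-KO (lacking the B-lineage factor Ebf1) and E2A-KO cells were expanded in that way. Ebf1-KO cells transduced with a pMiG-Ebf1-ER construct, which makes an Ebf1 that 4OHT (tamoxifen) activates, were sampled by ATAC-seq at 0, 6, 24 and 72 h of 4OHT. The fetuses' ages were not given in the sources used here. Every list and every column was either 1 library or a pool, so no difference between conditions could be tested. Intervals below are 95% intervals that cover counting over genes or tags only, and genes are not replicates of a condition. Peaks of the factors and accessible regions come from different cells, Wt progenitors and the Abelson line.

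The accessible list held 65093 peaks, the Fli1 list 27261, the Ikzf1 list 5741 and the PLAC-seq list 69898 interactions between bins of 5 kb. Of the Fli1 peaks 75.1% and of the Ikzf1 peaks 86.7% overlapped an accessible peak. Among marker genes of the Abelson line's lineage, all 10 B progenitor genes had an accessible start, against 3 of 6 T cell, 1 of 6 myeloid, 1 of 5 erythroid, 0 of 4 natural killer and 0 of 4 stromal genes. The lists say which peaks were called and not how accessible each one was, since the score column of the accessible list is 0 throughout.

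The promoters that carry the account are shown first: those with the 3 highest Fli1 scores (Ndufs8, Ndufv1, Ndufa13) and the first 3 by symbol that were accessible without a Fli1 peak (Atp5b, Atp5g1, Cox7b). Each line is the 250 bases before the start of the gene in RefSeq (GRCm38.p6), 5′ to 3′ on the gene's strand. Capitals mark, on either strand, the letters CGGAA (the core of an ETS site), GGGCGG (SP/KLF), AAGATGGCG (YY1) and the box CCAAT, and none of the 6 held the NRF1 palindrome.
Ndufs8: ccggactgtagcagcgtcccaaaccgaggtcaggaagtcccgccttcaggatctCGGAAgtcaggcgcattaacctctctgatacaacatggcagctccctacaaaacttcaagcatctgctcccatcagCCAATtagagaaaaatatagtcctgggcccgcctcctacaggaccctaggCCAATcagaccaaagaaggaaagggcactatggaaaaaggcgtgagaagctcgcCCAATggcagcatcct
Ndufv1: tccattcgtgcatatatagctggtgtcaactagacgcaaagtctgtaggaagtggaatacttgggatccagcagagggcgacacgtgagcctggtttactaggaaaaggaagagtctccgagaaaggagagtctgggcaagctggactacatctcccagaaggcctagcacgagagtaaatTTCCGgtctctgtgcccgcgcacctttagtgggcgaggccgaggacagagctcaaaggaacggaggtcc
Ndufa13: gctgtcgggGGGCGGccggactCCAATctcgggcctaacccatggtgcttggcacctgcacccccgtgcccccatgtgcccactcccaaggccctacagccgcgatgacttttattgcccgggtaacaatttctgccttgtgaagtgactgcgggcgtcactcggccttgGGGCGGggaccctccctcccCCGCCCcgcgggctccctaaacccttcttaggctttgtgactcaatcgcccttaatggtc
Atp5b: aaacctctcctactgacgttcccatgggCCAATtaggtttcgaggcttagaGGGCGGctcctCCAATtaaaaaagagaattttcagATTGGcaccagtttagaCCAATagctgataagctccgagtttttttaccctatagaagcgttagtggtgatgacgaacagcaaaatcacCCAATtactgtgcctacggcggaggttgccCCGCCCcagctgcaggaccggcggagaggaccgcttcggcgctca
Atp5g1: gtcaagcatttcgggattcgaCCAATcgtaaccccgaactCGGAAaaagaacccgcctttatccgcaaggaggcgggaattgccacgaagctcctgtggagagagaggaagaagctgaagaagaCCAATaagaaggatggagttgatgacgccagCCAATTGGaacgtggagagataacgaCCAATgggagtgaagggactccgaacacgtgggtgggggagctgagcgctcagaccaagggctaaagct
Cox7b: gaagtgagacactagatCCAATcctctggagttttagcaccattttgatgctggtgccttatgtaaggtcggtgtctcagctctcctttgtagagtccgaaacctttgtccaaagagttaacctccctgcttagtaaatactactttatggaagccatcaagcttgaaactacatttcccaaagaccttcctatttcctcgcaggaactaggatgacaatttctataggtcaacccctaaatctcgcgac
They lie at chr19:3912775-3913024 for Ndufs8 (minus strand), chr19:4012756-4013005 for Ndufv1 (minus strand), chr8:69902021-69902270 for Ndufa13 (minus strand), chr10:128083057-128083306 for Atp5b (plus strand), chr11:96075632-96075881 for Atp5g1 (minus strand), chrX:106015450-106015699 for Cox7b (plus strand). Ndufs8 held 1 CGGAA, 196 bases before the start, and 3 CCAAT boxes. Ndufv1 held 1 CGGAA, 69 bases before the start, and no other of these motifs. Ndufa13 held 3 GGGCGG and 1 CCAAT. Of the promoters without a Fli1 peak, Atp5g1 held 1 CGGAA at 210 bases before the start and 5 CCAAT boxes. Atp5b held 2 GGGCGG and 5 CCAAT boxes, and Cox7b 1 CCAAT box. Such matches describe letters in a window, and an absent match says nothing about a factor.

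An accessible peak covered a start of 68 of the 76 members, beside 55.9% of the 17674 other genes named in the 2 lists. The rule chose members by a nearby peak, which fixes part of this share. Of 14 further genes whose symbols of this form neither list used, 6 were found with a covered start. The authors' annotation, which classes a peak by its middle, called such a peak promoter-TSS for 44 of them. The other 24 had a peak over the start whose middle fell in an exon, an intron or a neighbour's territory. Among them were Cox5a, Ndufa13, Sdhb, Uqcr10 and Uqcrc2. Both definitions are given below: "annotated" for the 44, and "covered" for the 68, a definition chosen after the data were seen. The annotated promoter peaks of members had a median length of 1193 bp (interval 1012–1298), beside 1083 bp at 7206 other annotated promoters, and the covered ones 1204 bp beside 1176 bp at 11237 others. No accessible peak was found over the start of 8 members. They were Cox4i2, Cox6a2 and Cox7b2, isoforms of complex IV known from lung, muscle and testis, and Ndufa4l2, a hypoxia-induced relative of Ndufa4. The others were Atp5a1, Ndufa2, Ndufs3 and Uqcrc1, which encode subunits found in all tissues. Of the 8, only Cox7b2, Ndufs3 and Uqcrc1 had a start in the RefSeq promoter set. For the rest only a peak named for the gene could count, so a neighbour's peak over the start would be missed. Atp5a1 had no accessible peak named for it, so its start could not be assessed. Ndufs3 and Uqcrc1 had a Fli1 peak annotated to their promoter in Wt cells, with scores of 23.8 and 24.3. Of the 5 members whose isoform is restricted to certain tissues, Cox7a1, the heart and muscle isoform of Cox7a, was the 1 found with an accessible start.

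Away from promoters, the nearest-gene rule gathered much that may belong to neighbours. Of 176 accessible peaks nearest to a member, 46 were promoter-TSS, 65 lay in introns, 45 were intergenic and 67 lay over 10 kb from the start. Of the 85 in a gene body, 45 were in the body of another gene. Fli1 had 96 peaks nearest to a member, of which 47 were promoter-TSS, and Ikzf1 had 16, of which 8 were. Over all peaks, 7526 of the 65093 accessible, 6060 of the 27261 Fli1 and 1527 of the 5741 Ikzf1 peaks were promoter-TSS.

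Fli1 bound most of the accessible member promoters. Of the 44 annotated promoters, 38 overlapped a Fli1 peak, 86.4% (72.6–94.8), beside 68.7% of the 7206 others. Of the 68 covered promoters 60 did, 88.2% (78.1–94.8), beside 77.9% of 11237. Of the covered members 5 had entered through the Fli1 list alone, so a Fli1 peak had chosen them, and all 5 had one at the promoter. Without them 55 of 63 members had one, 87.3% (76.5–94.4), an interval that includes the background of 77.9%. All 44 annotated members are named in the accessible list, so their share does not rest on that choice. Other sets of genes that every cell uses had these counts: 70 of 74 covered promoters of the mitochondrial ribosome, 68 of 78 of cytosolic ribosomal proteins and 36 of 41 of the proteasome had a Fli1 peak.

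By complex, Fli1 was found at 25 of 30 covered promoters of complex I, 4 of 4 of complex II, 7 of 7 of complex III, 11 of 12 of complex IV and 13 of 15 of complex V. The share over other covered promoters was 77.9%. These counts include members that a Fli1 peak had chosen: Ndufa11, Ndufab1 and Ndufb2 in complex I, Uqcr10 in III and Atp5k in V. The 8 covered promoters without a Fli1 peak belonged to Ndufa6, Ndufb10, Ndufb4, Ndufc1 and Ndufv3 (accessory subunits of complex I), Cox7b, Atp5b (the catalytic beta subunit of ATP synthase) and Atp5g1 (which encodes the proton-carrying c subunit). None of the 8 had an Ikzf1 peak. Ikzf1 without Fli1 was rare elsewhere too: of other covered promoters 20.9% had an Ikzf1 peak and 19.7% had both. Their homologues could differ: Atp5g2 and Atp5g3, which encode the same c subunit as Atp5g1, had Fli1 peaks with scores of 23.3 and 18.1. Ndufb7 changed class with the definition, because its annotated peak had no Fli1 peak and the peak over its start had one, with a score of 36.7.

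**Figure D1:**
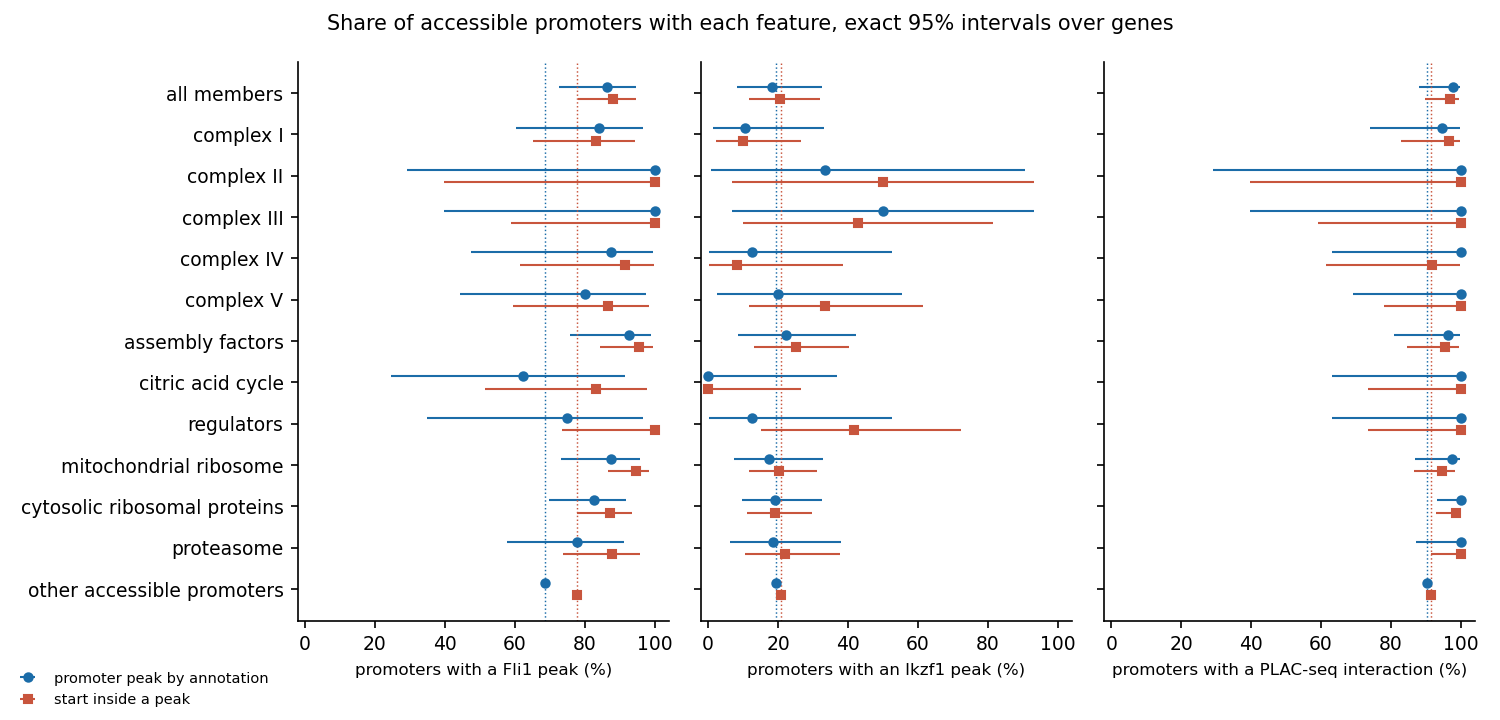
Share of accessible promoters (%) with a Fli1 peak, an Ikzf1 peak or a PLAC-seq interaction, for the members, each complex and the comparison lists. Circles use the promoter-TSS annotation and squares the covered start, lines are exact 95% intervals over genes, and dotted lines mark all other accessible promoters. The members' Fli1 share lies to the right of the dotted lines, as do those of the ribosomal lists, while the Ikzf1 share lies on them. The squares count the 5 members that entered through the Fli1 list alone.

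The Fli1 score, which the authors' peak caller gave and which ranks peaks within 1 list only, was 27.9 in the median annotated member (21–36.2, 38 peaks), beside 24.8 at other annotated promoters. In the covered set the medians were 24.6 (20.5–32.4, 60 peaks) and 23.8. Both backgrounds lie inside the members' intervals. The median over all Fli1 peaks was 16.7. Scores of the members ran from 10.0 to 69.1. The 2 highest belonged to Ndufs8 (69.1), a core subunit that holds iron–sulfur clusters, and Ndufv1 (62.4), the core subunit that takes the electrons from NADH. Ndufa13, an accessory subunit of complex I, followed with 49.5, from a peak at 458 bases past its start in a region of 2376 bp that also covers the start of Tssk6. The Fli1 peak annotated to Ndufa13 itself scored 27.2. Next came Ndufa4 (44.8), Atp5l (41.0), Ndufb5 (40.5), Cox8a (40.0) and Sdhc (38.6), the membrane anchor of complex II. Ndufa9 and Uqcrh stood together at 38.1. The lowest scores were 10.0 at Ndufc2 and Cox6c, 11 at Atp5k, 13.3 at Ndufb8 and 14.8 at Atp5d. At the annotated promoter peak of Atp5d, which is a different peak, the Fli1 score was 20.

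By complex, the median Fli1 score over covered members with a peak was 27.2 in complex I, 29.3 in II, 24.3 in III, 28.6 in IV and 21 in V, with quartiles of 20.0 to 25.3 in complex V. These medians rest on 4 to 25 genes each, and no test was made of their differences.

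**Figure D2:**
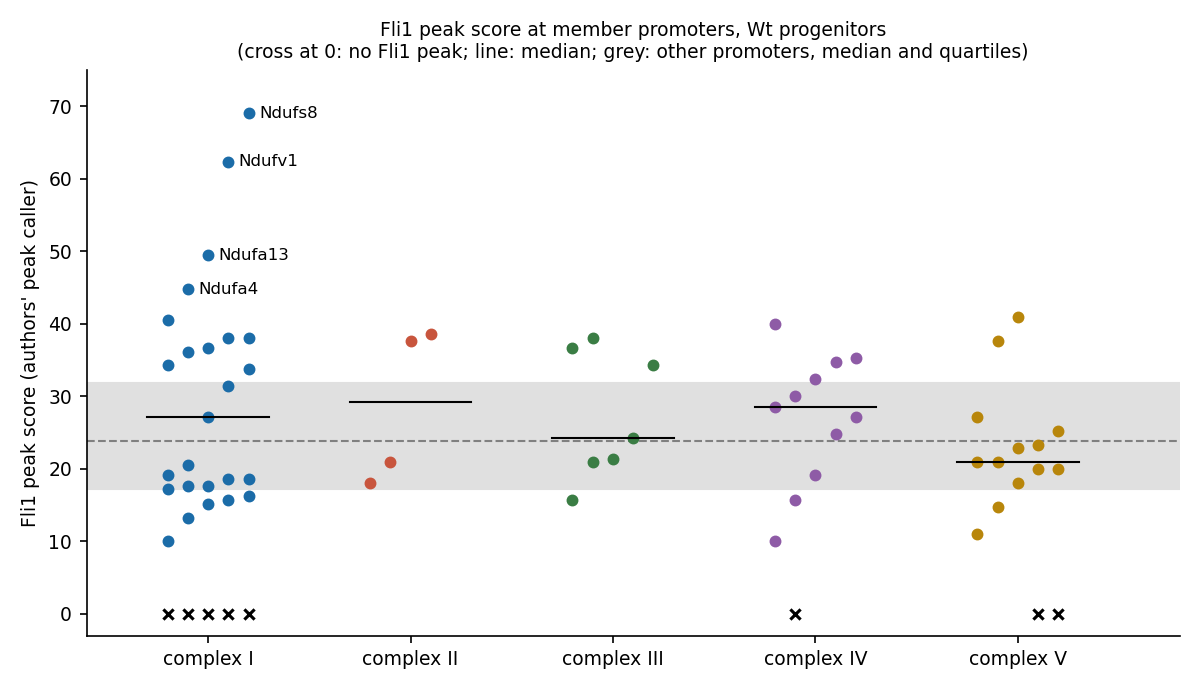
Fli1 peak score in Wt progenitors (y axis, the authors' score) at the 68 members with a covered start, by complex. Points are members, black lines medians over members with a peak, crosses at 0 the 8 members without a Fli1 peak, and the grey band the quartiles of 8755 other promoters around a dashed median of 23.8. Ndufs8, Ndufv1, Ndufa13 and Ndufa4 stand above all other members.

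Ikzf1 was found at about the same share of member promoters as elsewhere. It overlapped 8 of 44 annotated promoters, 18.2% (8.19–32.7), beside 19.5%, and 14 of 68 covered ones, 20.6% (11.7–32.1), beside 20.9%. All 14 also had a Fli1 peak. Among other promoters 17.9% of the annotated and 19.7% of the covered had both peaks, so most promoters with Ikzf1 had Fli1 there too. In complex II they were Sdha (score 7.05), the flavoprotein that oxidises succinate, and Sdhb (5.49), the iron–sulfur subunit beside it. In complex III they were Uqcrb (6.27), Uqcrq (6.66) and Uqcr10 (6.27), small subunits of the cytochrome bc1 complex. Complex V had 5: Atp5d (6.66), Atp5g2 (5.88), Atp5j (5.09), Atp5j2 (5.88) and Atp5sl (6.27). Complex I had 3, among them Ndufb3 (7.45) and Ndufab1 (5.49), the mitochondrial acyl carrier protein. Complex IV had Cox4i1 (7.05), the common isoform of subunit 4. The median over the 14 was 6.27 (5.49–7.05), beside 7.05 at others, and over the 8 annotated 6.86, beside 7.05. Counts per complex rest on 3 of 30, 2 of 4, 3 of 7, 1 of 12 and 5 of 15 promoters (I to V) and their intervals overlap.

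Fli1 peaks sat close to the starts of the members. For 52 covered members with a Fli1 peak and a RefSeq promoter window, the middle of the peak lay a median of 94.5 bp from the start in either direction, beside 145 bp at 7417 other genes. It lay within 150 bp in 35 of 52, 67.3% (52.9–79.7), beside 51.3%. The 52 include the 5 members that entered through the Fli1 list alone, so a nearby Fli1 peak had chosen these. Their distances were -11 bp at Atp5k, 72 at Ndufa11, -3 at Ndufab1, 176 at Ndufb2 and -74 at Uqcr10. The median and the share of the members rest in part on that choice. Upstream and downstream positions were both common, and the median signed distance was -1.5 bp. The farthest were Atp5j (617 bp past its start, in the peak it shares with Gabpa) and Ndufa13 (458 bp past). At 10 members the middle of an Ikzf1 peak could be placed in the same way, at a median of 75 bp past the start. Its quartiles of -133 to 149.5 bp lay on both sides of the start. The median signed distance at 1887 other genes was -26 bp.

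**Figure D3:**
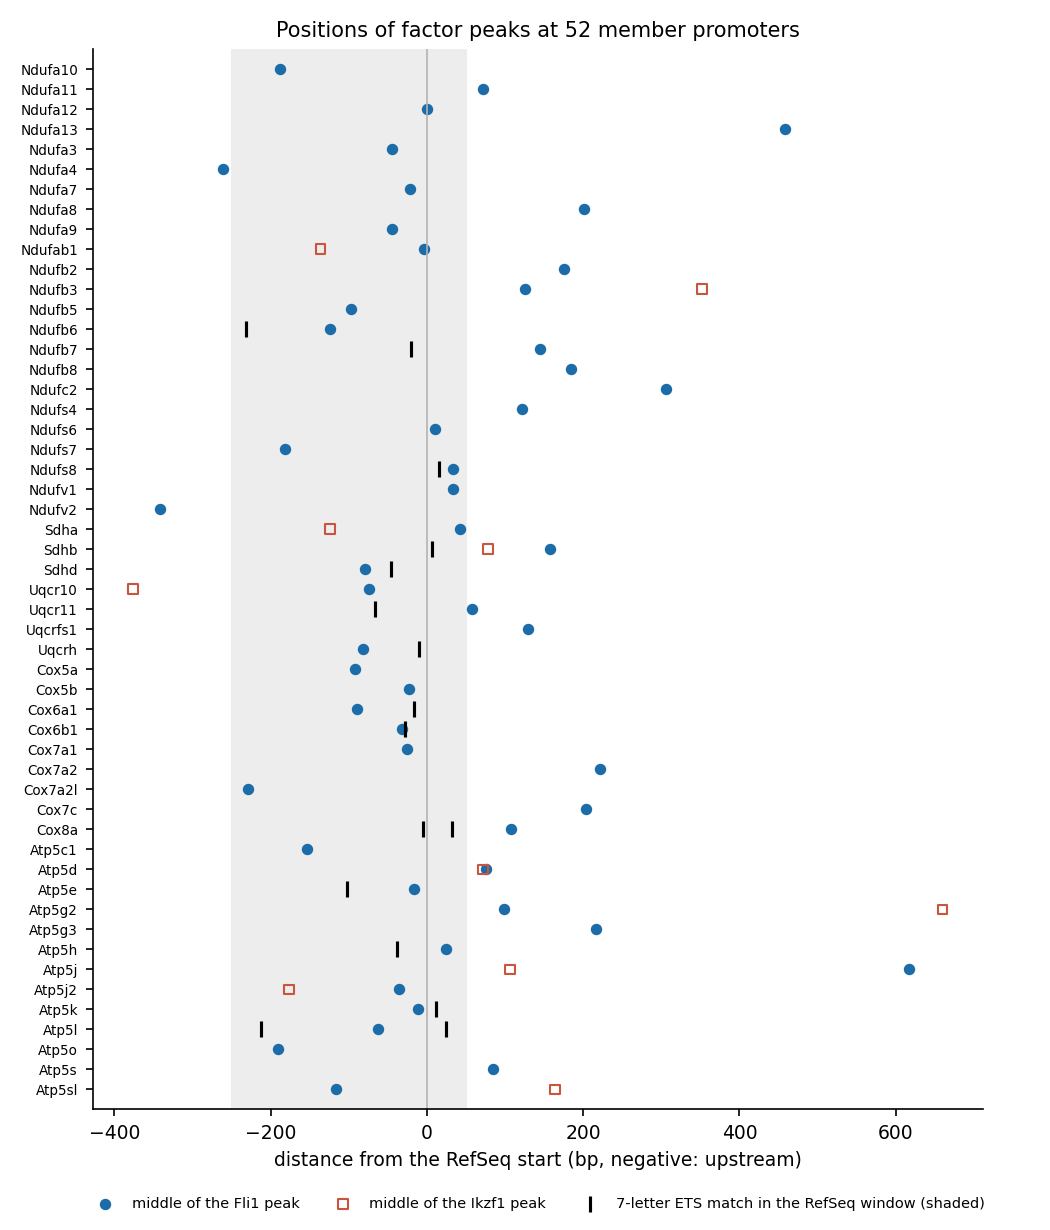
Distance (bp) from the RefSeq start to the middle of the Fli1 peak (filled circles) and of the Ikzf1 peak (open squares) at 52 member promoters, ordered by complex from I at the top to V. Ticks mark the first base of CCGGAAG matches on either strand within the shaded window. Most circles lie within 150 bp of the start, and 14 of the 52 rows hold a tick.

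The longer ETS motif CCGGAAG was searched on both strands in the RefSeq window of 250 bases before to 50 after the start, which existed for 63 of 76 members. It was present in 15 of 63, 23.8% (14.0–36.2), beside 9.29% of 27023 windows in all. Among genes with a covered start it was in 14 of 60 members, 23.3% (13.4–36), beside 20.5% of 9495 others. All 14 were among the 52 with a Fli1 peak, 26.9%, beside 24.3% of 7417 others with one. The 8 members without a Fli1 peak held none, beside 7.12% of 2078 others without one, and 0 of 8 allows a share of up to 36.9% (exact interval). In 4 of the 14 the motif lay within 50 bp of the middle of the Fli1 peak, 28.6% (8.39–58.1), beside 35.6%. These 4 sites are shown as 30 bases on the gene's strand, with the motif in capitals.
Atp5k: cctcagttgagCTTCCGGcgcgaaggtcac
Cox6b1: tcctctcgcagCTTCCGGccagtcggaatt
Ndufs8: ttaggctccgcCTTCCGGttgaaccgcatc
Sdhd: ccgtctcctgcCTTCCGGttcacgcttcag
They lie at chr5:108434369-108434398 for Atp5k, chr7:30626124-30626153 for Cox6b1, chr19:3912741-3912770 for Ndufs8, chr9:50603877-50603906 for Sdhd, all on the minus strand. All 4 read CTTCCGG on the gene's strand, the reverse complement of CCGGAAG. The motif began 12 bases past the start in Atp5k, 28 before it in Cox6b1 (a peripheral subunit of complex IV), 15 past it in Ndufs8 and 46 before it in Sdhd (a membrane anchor of complex II). Their Fli1 scores covered almost the whole range: 11, 30.0, 69.1 and 21 in the same order. Ndufv1, with the second highest score, had no CCGGAAG in its window.

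Among the other letters, the members' interval lay below the share of other accessible windows for SP/KLF and above it for YY1, and included it for the NRF1 palindrome, the Ikaros core and the CCAAT box. The SP/KLF letters, GGGCGG, were found in 38.3% (26.1–51.8) of the 60 members, beside 65.9%, and their median GC content was 57.8%, beside 61.3%. AAGATGGCG, the YY1 letters, was found in 7 of 60, 11.7% (4.82–22.6), beside 3.65%, in Atp5j2, Atp5sl, Ndufa9, Ndufc1, Ndufs4, Ndufs6 and Ndufs7. The NRF1 palindrome was found in 4 of 60, 6.67% (1.85–16.2), beside 2.34%, in Atp5g2, Atp5k, Cox6a1 and Ndufa11. The YY1 share was 12.1% in mitochondrial ribosome, 6.67% in cytosolic ribosomal and 5.71% in proteasome windows. TGGGAA, the core bound by Ikaros, was found in 21.7% beside 22.3%. The shorter core CGGAA was in 66.7% (53.3–78.3) beside 53.7%, and CCAAT in 46.7% (33.7–60.0) beside 38.6%; both were added after the data were seen. The members' interval for CGGAA also included the share of other windows. In mitochondrial ribosome, cytosolic ribosomal and proteasome windows CGGAA was found in 75.8%, 83.3% and 80.0%, and the median GC content was 58.2%, 58.2% and 59.0%. CGGAA lies within CCGGAAG, so the ETS counts are not independent.

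Promoter contacts in the Abelson line were present at nearly all members, and at most other accessible promoters. H3K4me3 PLAC-seq enriches ligated fragments that carry H3K4me3, a mark of active promoters, so an interaction is anchored at marked chromatin. Of the annotated promoters 43 of 44 lay in a bin with at least 1 listed interaction, 97.7% (88.0–99.9), beside 90.4%, and of the covered ones 66 of 68, 97.1% (89.8–99.6), beside 91.6%. The median number was 7 (6–9) in both sets, beside 6 and 6. At least 10 interactions were found at 15 of 44, 34.1% (20.5–49.9), beside 26.2%, and at 24 of 68, 35.3% (24.1–47.8), beside 24.9%. For each of these shares and medians the value of other promoters lies inside the members' interval. Cytosolic ribosomal protein promoters had more, with medians of 11.5 (annotated) and 9 (covered).

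Complex III had the most contacts per promoter, with a median of 12 over 7 genes, and complexes I, II, IV and V had 5, 8.5, 6.5 and 6. The highest numbers were 23 at Cox5a (a matrix-side subunit of complex IV), 22 at Uqcr10, 20 at Ndufa13, 18 at Uqcrc2 (a core protein of complex III) and 17 at Atp5o (the stalk subunit that confers oligomycin sensitivity). Ndufa7 had 16, and Atp5d, Cox8a and Ndufb9 had 15 each. Cox4i1 and Ndufb10 had 14. Ndufs6 and Cox7c had none, although both starts were accessible and both had Fli1 peaks (15.7 and 19.1). Members with high Fli1 scores varied widely: Ndufs8 had 4 contacts, Ndufv1 11, Ndufa13 20, Ndufa4 6, Atp5l 3, Ndufb5 12 and Cox8a 15.

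**Figure D4:**
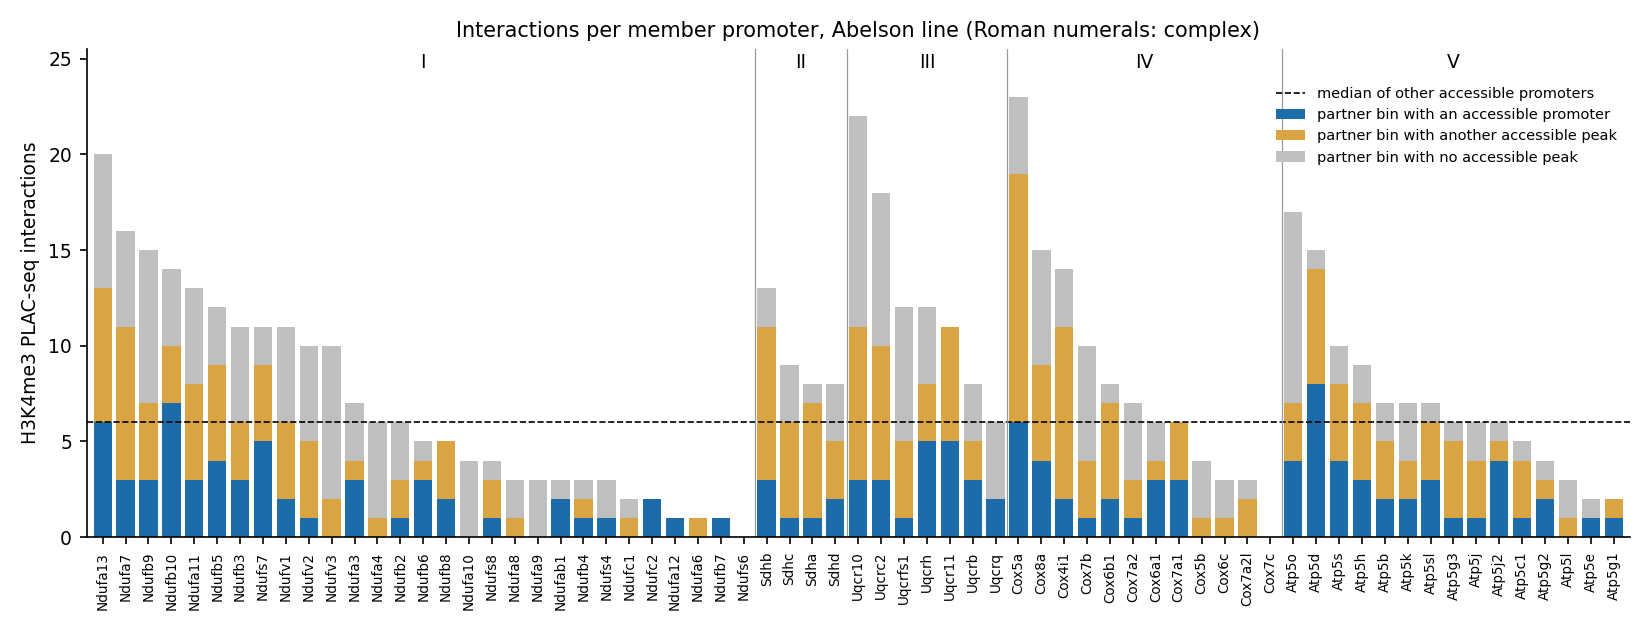
Number of PLAC-seq interactions (y axis) at 67 of the 68 members with a covered start, by complex (I to V) and in descending order within it. Colours give the class of the partner bin, by annotated promoters only, and the dashed line the median of 6 over other accessible promoters. Cox5a and Uqcr10 have the tallest bars, and Ndufs6 and Cox7c have none.

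Partner bins were classed by annotated promoters only, also for the covered set, so a bin without one may still hold a covered start. Of the 536 interactions of covered members, 26.7% reached a bin with another annotated promoter. A further 37.3% reached a bin with an accessible peak and no annotated promoter, and 36% neither. Of 74527 interactions of other promoters the shares were 22%, 39.6% and 38.4%. At least 1 promoter partner was found at 54 of 68 members, 79.4% (67.9–88.3), beside 65.5%, and at 34 of 44 annotated ones, 77.3% (62.2–88.5), beside 64.8%. The only contact between 2 members joined the promoters with the 2 highest Fli1 scores, Ndufs8 and Ndufv1, which lie 100 kb apart on chromosome 19 (contact count 15, authors' q-value 0.0185). The largest contact counts with a promoter partner were short-range: 112 for Sdhd and Pih1d2 (15 kb), 103 for Atp5j2 and Ptcd1 (25 kb), 102 for Cox8a and Otub1 (10 kb) and 99 for Ndufa3 and Prpf31 (10 kb). Ndufb10 had as many as Ndufa3, 99, with an accessible bin without an annotated promoter (15 kb). Uqcr11 met Mbd3 with 95, and Cox6a1 met Dynll1 (45 kb) with 92. Cox4i1 contacted the promoter bin of Irf8, a transcription factor of B and myeloid cells, over 70 kb with a count of 43. Ndufb9 contacted that of Sqle, an enzyme of cholesterol synthesis, over 385 kb with 49. Atp5j contacted Mrpl39 of the mitochondrial ribosome over 100 kb with 23. The longest contact joined Uqcrfs1, the Rieske iron–sulfur protein, and Wrnip1 over 2255 kb with a count of 7. Promoters in the same 5 kb bin share their contacts, so an interaction may belong to a neighbour.

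A promoter peak was shared by 11 annotated members, 25.0%, with another gene, beside 22%. Atp5j shared it with Gabpa, which encodes the DNA-binding subunit of the ETS factor GABP, and this 2186 bp peak held a Fli1 peak of 27.2, an Ikzf1 peak of 5.09 and 6 interactions that cannot be divided between the genes. Ndufb5 shared its peak with Mrpl47 and Sdhd with Timm8b, both of them mitochondrial genes. The others included Atp5c1 with Kin, Cox4i1 with Emc8, Ndufa8 with Morn5, Ndufb3 with Fam126b, Ndufb9 with Tatdn1, Uqcrb with Gm10767 and Uqcrh with Lrrc41.

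The rest of the pathway was read from lists of genes that are not members. The shares to read them against are 77.9% (covered) and 68.7% (annotated) for Fli1 and 20.9% (covered) for Ikzf1. Assembly factors had a Fli1 peak at 42 of 44 covered promoters (25 of 27 annotated), with the highest scores at Timmdc1 (54.8), Cox16 (53.4) and Ndufaf8 (49.1). Enzymes of the citric acid cycle had one at 10 of 12 (5 of 8 annotated), led by Dld (37.2) and Idh3b (29.5), and an Ikzf1 peak at 0 of 12. Regulators of mitochondrial genes had a Fli1 peak at 12 of 12 (6 of 8 annotated) and an Ikzf1 peak at 5 of 12. Their highest Fli1 scores were 82.9 at Gabpb1, a GABP subunit, 46.2 at Tfb2m, a mitochondrial transcription factor, and 39.5 at Yy1. The electron carriers Cycs and Cyc1 scored 23.8 and 10.5. Mitochondrial ribosome genes were led by Mrps18b (77.2), cytosolic ribosomal genes by Rps19 (85.8) and proteasome genes by Psme3 (58.6).

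The tables of signal in Wt, Ebf1-KO and E2A-KO cells cover 4983 regions near genes picked by the authors for Wt enrichment, so most members are outside them and a lower signal in a knockout is not independent evidence there. They hold 11 regions named for 5 members. Of these regions 1 is a member promoter, that of Cox7a1 (chr7:30183851-30184660). Values are tags in the region per 10000000 tags of the column, and the columns held between 24557525 and 196071042 tags.

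Active marks at the Cox7a1 promoter were higher in Wt than in Ebf1-KO cells. H3K4me2 was 18.5 in Wt and 5.99 in Ebf1-KO, 3.08-fold (1.94–5.05) higher. H3K4me3 was 8.35 and 1.94, 4.30-fold (2.84–6.62) higher, and H3K27ac was 18.1 and 4.63, 3.91-fold (1.97–7.54) higher. The median log2 ratio over the 512 promoter regions of the same table was -0.48, -0.49 and 0.48 for these marks. Cox7a1, at 1.48, 1.67 and 1.76, stood at percentiles 94.7, 94.1 and 93.6 of those regions. These percentiles are of the ratio. By the signal itself, Cox7a1 stood at percentiles 18.9 in Wt and 6.84 in Ebf1-KO for H3K4me2. The signal percentiles were 7.62 and 2.73 for H3K4me3, and 50.8 and 17.6 for H3K27ac. BRG1, the ATPase of a chromatin remodelling complex, was 19.1 and 10.3, 1.86-fold (1.31–2.67) higher in Wt. EP300, a histone acetyltransferase, was 18 and 10.5, 1.72-fold (1.22–2.42) higher, but the label of the Wt EP300 sample leaves its antibody in doubt by naming PolII with a question mark. Over the 916 regions of their table the median log2 ratio was 0.099 for BRG1 and 0.40 for EP300, and Cox7a1, at 0.83 and 0.73, stood at percentiles 72.8 and 61.6. PolII was 5.46 and 7.87, a ratio of 0.694 whose interval (0.330–1.41) includes 1, at percentile 16.8 of the 512 regions. The repressive mark H3K27me3 was near 0 in both (0.43 and 0.32). Each mark was 1 library or 1 pool per genotype, so the spread between cultures is unknown.

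Accessibility of the Cox7a1 promoter was 23.9 in Wt and 13.4 in E2A-KO, 1.78-fold (1.44–2.22) higher in Wt. Its log2 ratio of 0.79 stood at the median of all 4983 regions, 0.76, so relative to that median the difference was 0.03, and under TMM scaling its sign turned (-0.064). In Ebf1-KO cells with Ebf1ER the value was 8.03 at 0 h of 4OHT, then 4.32 at 6 h, 5.19 at 24 h and 6.34 at 72 h. The totals in the headers of the 6 h and 72 h columns, 34710011 and 34710016 tags, are nearly equal although the values differ, so the scaling of 1 of these columns is in doubt. Each interval of the ratio to 0 h included 1. The median of 916 Ebf1-bound regions was higher at these times than at 0 h, by 0.26, 0.47 and 0.49 on the log2 scale, and Cox7a1 stood at percentiles 1.09, 1.31 and 2.29 of them. The promoter had a Fli1 peak of 15.7, no Ikzf1 peak and 6 interactions. The strongest, with a count of 87, was with an accessible bin without an annotated promoter 10 kb away.

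**Figure D5:**
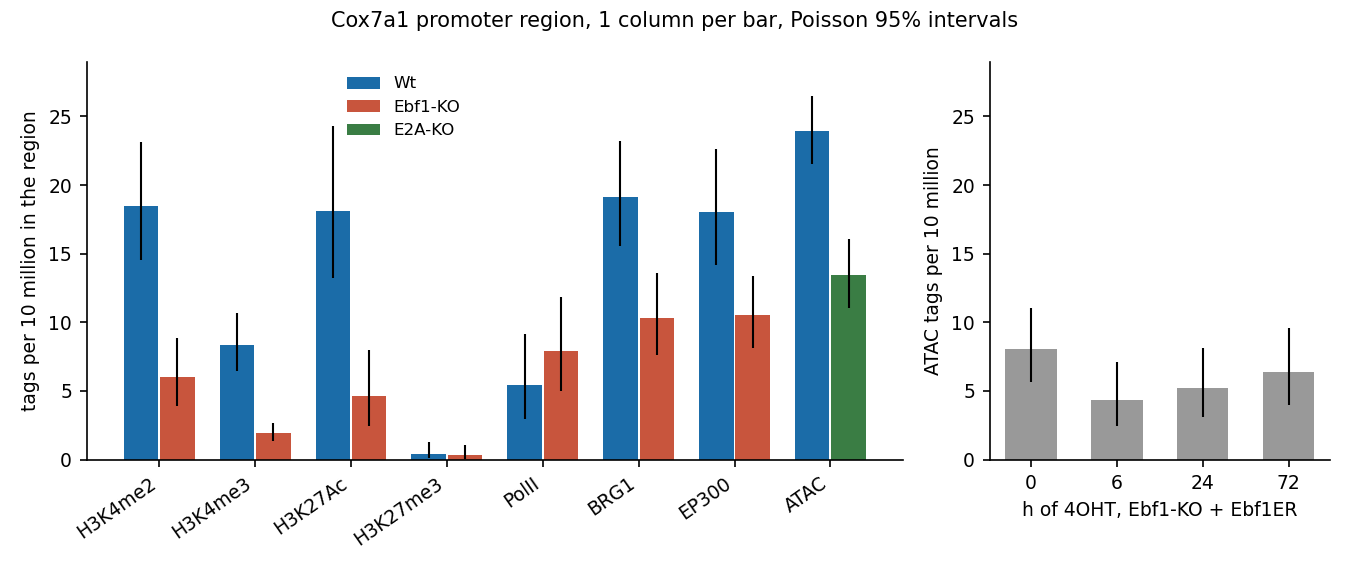
Tags per 10000000 in the Cox7a1 promoter region (y axes start at 0) for marks and factors in Wt and Ebf1-KO and for ATAC-seq in Wt and E2A-KO (left), and for ATAC-seq by hours of 4OHT (right). Each bar is 1 column with its Poisson 95% interval for counting error. The H3K4me2, H3K4me3 and H3K27ac bars are higher in Wt, and the 4 bars of the time course overlap in their intervals.

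The other 10 regions were distal. An Ebf1-bound intergenic region 31.7 kb past the start of Cox4i1 (chr8:120699240-120700787) had H3K4me2 of 100.1 in Wt and 16.8 in Ebf1-KO, H3K27ac of 37.5 and 9.25, and H3K4me3 of 28.1 and 11.6. Some values at other distal regions were lower in Wt. H3K4me3 was 15.7 in Wt and 30.1 in Ebf1-KO at the region 33.8 kb past Cox4i1, where H3K4me2 was 25.8 and 23.3, and 0.39 and 1.73 at the region 15.5 kb past it. The Wt value of 0.39 rests on about 3 tags. H3K27ac was 3.66 and 5.37 at the Uqcrfs1 region, where the Ebf1-KO interval (2.97–8.93) includes the Wt value. EP300, with the doubt above, was 2.68 and 13.8 at the Ebf1-bound Ndufb9 region. The mark values carry any shift between whole columns. For H3K4me3 the median log2 ratio of Wt over Ebf1-KO was -0.49 over the 512 promoter regions. The distal regions are not among those 512, and medians of the marks over distal regions are not given here. The accessibility of the Ebf1-bound Cox4i1 region was 23.2 in Wt and 9.44 in E2A-KO. An intronic region of Bcl2l1, a survival factor, that was named for Cox4i2 had 9.23 in Wt and 1.17 in E2A-KO. The 3 regions named for Ndufb9 all lay in Mtss1, 41.6 to 63.1 kb from the Ndufb9 start, and their ATAC values were 16.7, 20.9 and 13.6 in Wt and 8.28, 12.1 and 5.13 in E2A-KO. The region 21.4 kb before Uqcrfs1 had 8.91 and 9.09. These ATAC values carry the shift of the whole table (median log2 ratio 0.76). Under TMM scaling the log2 ratio of Wt over E2A-KO was 0.36 at the Ebf1-bound Cox4i1 region and 1.45 at the Cox4i2 region. It was 0.097, -0.11 and 0.43 at the Ndufb9 regions and -0.81 at the Uqcrfs1 region. A listed interaction could have joined 8 of the 10 regions to a promoter bin of the member, and joined 0 of them. The other 2 could not be joined, because the Cox7a1 region lies too near its promoter and no accessible start was found for Cox4i2.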

How the data were processed

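The assays were those named above, with CUT&RUN for H3K27ac, per the labels' protocols. Among the tools in the submitters' processing notes, given with no roles, are HiC-Pro 2.11.1, HOMER 4.10, Trim Galore 0.6.4, deepTools 3.3.1, Bowtie2 2.3.5, MACS2, SAMtools 1.9 and edgeR, and the build is mm10. The accessible, Fli1 and Ikzf1 lists were deposited as HOMER annotations, per the file headers. The Fli1 and Ikzf1 peak score is the authors' own. The PLAC-seq list gives the authors' contact count per pair of 5 kb bins and a q-value, deposited at 0.05. The region tables give signal as tags that the authors scaled to 10000000 per library, per the file headers, and not divided by length. In these, a total of 2 columns with no labelled sample (ATAC-seq of Ebf1-KO and Pax5-KO cells) were not used. By its name, the Wt ATAC-seq column pools more libraries than the 3 labelled.

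From these files, peaks were joined by an overlap of at least 1 bp. A promoter was annotated when a peak was promoter-TSS of the gene, and covered when a peak held the authors' nearest start or a RefSeq start. An interaction was assigned when the promoter peak overlapped the bin. Genes that shared a promoter peak with a member were left out of the other promoters. Of 12084 genes, 90.4% had a start within 2 bp of RefSeq GRCm38.p6. Shares carry exact Clopper-Pearson intervals, medians order-statistic intervals and tags exact Poisson intervals, which cover counting error only. PCR reads without molecular identifiers are not independent molecules. Log2 ratios used a pseudocount of 1, and TMM factors were computed in numpy. The interval and TMM code was tested on simulated data. Computations ran in Python 3.11.15 with SciPy 1.17.1, numpy 2.4.6, matplotlib 3.10.9 and pandas 2.3.3.

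Members, gene lists, motifs and the rule for named genes were chosen with earlier results of these data known. Any member may be named. Always named are members without an accessible start, accessible members without a Fli1 peak or with an Ikzf1 peak, the 10 highest and 5 lowest Fli1 scores, the 10 with most interactions and those with none, members in the region tables, and the 3 highest Fli1 scores per other list. Among these, 1 member and 1 gene of another list are not reported here by name. Contact partners and motif carriers were named after their values were seen. Limma across replicates, planned for per-replicate columns, could not be run. Alternatives were the peak assignment, overlap, score and q thresholds, promoter definition, restricted isoforms, pseudocount, TMM scaling and motif window. Inputs, IgG and Ebf1-KO Fli1 and Ikzf1 were not analysed here.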

Additional observations from a re-analysis of the deposited data

How the results depend on the processing

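Over 52 alternatives, 49 values stayed within the 95% interval of the reported value with the same direction, among them 29 of 30 for the lists of promoters. The member share with a Fli1 peak ran from 75% (Fli1 peak itself annotated to the gene's promoter, others 58.3%) to 88.2%, above that of other promoters in each. The 88.2% counts the 5 covered members that a Fli1 peak had chosen. Without them the share was 87.3% (76.5–94.4), an interval that includes the 77.9% of other covered promoters. The median number of interactions moved from 7 to 4.5 (others 4) with interactions at q of at most 0.01, by construction, since fewer interactions are counted. The Cox7a1 promoter's log2 ratio of Wt over Ebf1-KO for H3K4me3 moved from 1.67 to 0.94 with a pseudocount of 5, which damps low values. Its log2 ratio of Wt over E2A-KO accessibility reversed from 0.79 to -0.064 under TMM scaling, which also moved the median of all regions from 0.76 to -0.017. No paired analysis was possible because every list and column is 1 library or a pool, and for the same reason no replicate could be left out. Depth limits the Cox7a1 H3K27me3 values, where few tags were counted. Counts per complex rest on 4 to 30 promoters, so differences between complexes were not resolved.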

Other observations

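Some genes of the same complexes were missing from the set through naming alone. Of 14 further protein-coding genes of the symbol pattern, 6 had a start inside an accessible peak that the lists do not name for them, and all 6 had a Fli1 peak there, beside 77.9% of other covered promoters. Atp5pb, the peripheral stalk subunit b of ATP synthase, lay in a peak named for Wdr77, with a Fli1 score of 21 and 17 interactions. Ndufs5 (26.2) and Ndufb1 (23.3) had scores near the members' median, and Ndufa1 (12.9), Ndufa5 (10.5) and Ndufb11 (9.05) had lower ones. With these genes counted, 66 of 74 accessible starts of the pattern had a Fli1 peak, 89.2% (79.8–95.2), a set that still holds the 5 members named in the Fli1 list alone. The other 8 included Cox6b2, Cox8b and Cox8c, isoforms known from testis and muscle, and the core subunit Ndufs1. None of the 8 was found with a covered start. The search went by RefSeq symbol and start, so a gene listed under an older symbol or lacking a RefSeq start would be missed.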
